A study of Mus musculus with 8 samples.

Results

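The mRNAs of 6 STAT transcription factors, Stat2, Stat3, Stat4, Stat5a, Stat5b and Stat6, were followed in MC38 cells with and without DENR. They were taken by gene symbol and make up 6 of the 23998 genes and loci listed in either of the deposited tables. All 6 are listed for IFNγ-treated cells, and 5 for untreated cells, where Stat4 is missing from a table that holds genes with at least 2 reads over its 4 samples. MC38 cells derive from a colon adenocarcinoma of the mouse. DENR KO cells were stable cells made with lentiviral Cas9 and sgRNA against Denr, which encodes a factor for translation re-initiation, and they were compared with cells labelled as control. Cells of each genotype were either left untreated or given 20 ng/ml IFNγ for 4 h, which makes 4 groups with 2 samples in each group. Whether the 2 DENR KO samples came from different sgRNAs or from cultures of 1 line is not given in the sources used here, so the p-values measure the spread between these samples, which may be technical.

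STAT proteins sit in the cytoplasm until a cytokine receptor is engaged. Janus kinases bound to the receptor then phosphorylate them on a tyrosine, and the STATs pair through their SH2 domains, enter the nucleus and bind short palindromes known as GAS elements. STAT2 pairs with other STATs and, with IRF9, binds a different sequence, the interferon-stimulated response element (ISRE). STAT3 is best known for its response to cytokines of the IL-6 family, STAT4 for that to IL-12 in T and NK cells, STAT5A and STAT5B for those to IL-2, growth hormone and prolactin, and STAT6 for those to IL-4 and IL-13. IFNγ signals through the receptor chains IFNGR1 and IFNGR2 with JAK1 and JAK2, and several STAT genes are themselves targets of interferon signaling in many cell types.

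Motif matches were looked for in the promoters because Stat2 and Stat3, as shown further on, differed between genotypes in the same direction. All 6 genes matched at least 1 RefSeq promoter window (GRCm38.p6), and 9 windows of 250 bases before to 50 bases after a transcription start were searched on both strands. The ISRE-type motif TTTCNNTTTC was present in 3.44% of the 32851 windows of the genome. Among the members it occurred once in the window of Stat2 and once in a window of Stat4 that belongs to an internal start. The GAS-type motif TTCNNNGAA, found in 8.3% of all windows, had no match in the 9 windows, and its variant with a spacer 1 base longer, TTCNNNNGAA, found in 6.95%, had 1 match, again in Stat2. The ISRE-type match of Stat2 begins 222 bases and the GAS-type match 210 bases before the RefSeq start, so both fall in 1 stretch of 30 bases. That stretch and the one of Stat4 are shown because they hold the only matches, in a gene that responded strongly to IFNγ and in one that was barely detected, and capitals mark the matched bases.
Stat2, chr10:128270272-128270301, plus strand: ctggTTTCAGTTTCctTTCCCTAGAActca
Stat4, chr1:52008133-52008162, plus strand: aatgtcttcaGAAAGTGAAAtttagaacgg
In Stat4 the ISRE-type motif lies on the opposite strand. The windows of Stat3, Stat5a, Stat5b and Stat6 held none of the 3 motifs. A match is a description of these letters only, and binding was not measured here.

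The values are normalized counts, that is, reads on a gene over a single size factor per sample. The 8 samples held between 17369020 and 18403790 reads on genes, with size factors from 0.976 to 1.02. Denr mRNA, the targeted transcript, had with IFNγ 1438 and 1401 normalized counts in control cells but 946 and 957 in DENR KO cells. Without IFNγ it had 1448 and 1297 against 943 and 916. It was lower in every DENR KO sample but still present, and these values do not measure DENR protein. The paper checked the knockout in MC38 cells by western blot. Of 8 epithelial markers, Epcam, Cdx2 and Krt20 are not listed in either table, and the list summed to between 12.7 and 24.6 normalized counts in a sample. Fibroblast markers were high, led by Col1a2. Their sums were lower in DENR KO cells without overlap, at 18983 to 19732 against 20795 to 20824 in control with IFNγ. Untreated they were 21700 to 22298 against 22917 to 23922. Not every marker followed its sum. With IFNγ the mean of Col1a2 was 9822 in DENR KO and 9746 in control cells. The Col1a1 samples overlapped there, at 374 and 315 in DENR KO against 371 and 345 in control cells. Of single genes tested, 20.8% with IFNγ and 19.6% untreated were lower in DENR KO cells without overlap. Among leukocyte markers the pan-leukocyte gene Ptprc reached at most 3.06 normalized counts. Cd14 had group means between 369 and 466 and made up most of the list. With IFNγ the list summed to 396 to 451 in control and 463 to 476 in DENR KO cells. Untreated the sums overlapped, at 515 to 529 in control and 525 to 563 in DENR KO cells. Endothelial markers summed to between 23.4 and 35.2. The part of these marker genes in the STAT values was not tested. The samples are of the MC38 line, and whether its own cells or others carried these RNAs was not tested. In bulk RNA fewer cells of a type and less RNA per cell cannot be told apart.

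Of the 5 members listed both with and without IFNγ, Stat2 and Stat3 had a large response to IFNγ. Under IFNγ both were lower in DENR KO than in control cells. The plot of normalized counts by sample shows this beside the smaller differences of the other members.

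**Figure D1:**
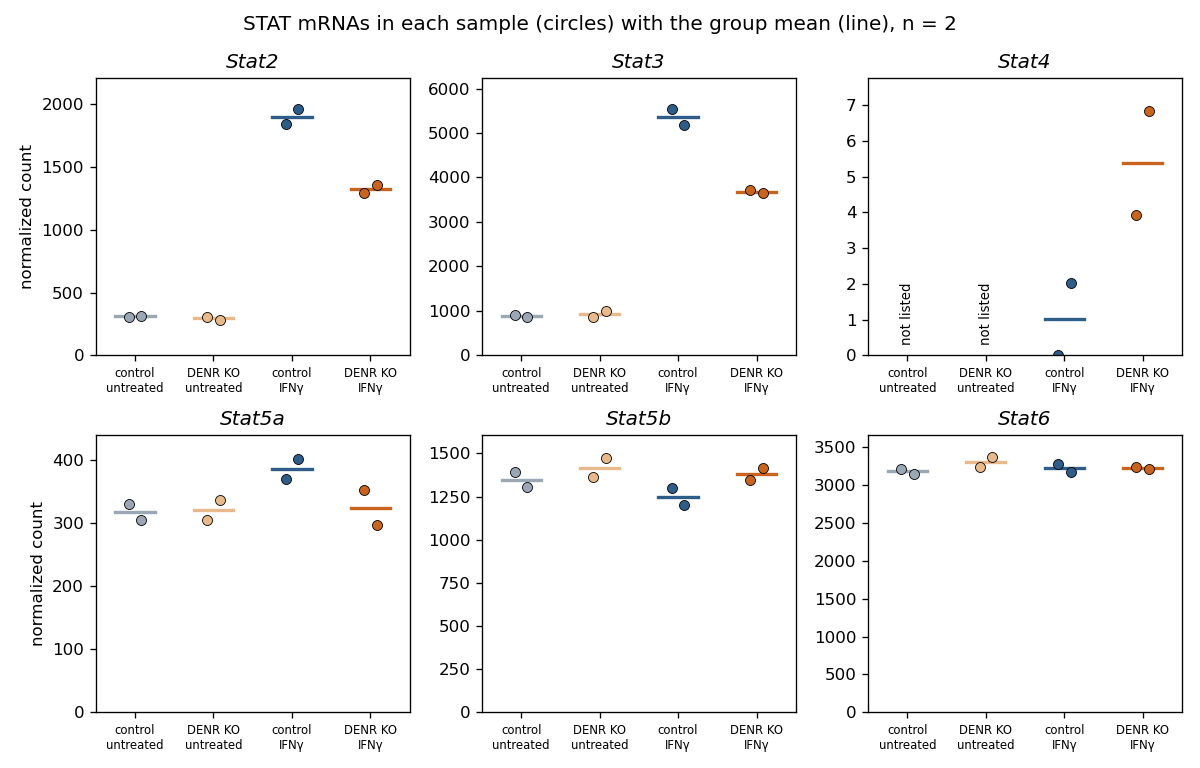
Normalized counts (y axis, linear and starting at 0) of each STAT mRNA in the 4 groups (x axis), with 1 circle per sample and a line at the mean of the 2 samples. Stat2 and Stat3 rose severalfold with IFNγ and stood lower in DENR KO than in control cells there, while Stat5b and Stat6 stayed within a narrow band in all 8 samples and Stat4 never exceeded 6.84.

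Stat2 (ENSMUSG00000040033) lies on chromosome 10 of GRCm38 from 128270559 to 128292849 on the plus strand. Untreated control samples had 309.9 and 314.3 normalized counts of Stat2, and untreated DENR KO samples had 304.1 and 285.9. With IFNγ the control samples reached 1844 and 1960, on average 1902 ± 81.9 (SD, n = 2), against 1295 and 1355 in the DENR KO samples, on average 1325 ± 42.1 (SD, n = 2). All 4 treated samples were far above the 4 untreated ones, and the 2 genotypes did not overlap under IFNγ. DENR KO cells held 69.65% of the control level there, a log2 difference of -0.52 (standard error 0.068, 95% interval -0.66 to -0.38) (limma, adjusted p = 1.8e-05 over all 13928 genes tested).

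Stat3 (ENSMUSG00000004040), on the minus strand of chromosome 11 from 100885098 to 100939540, had 915.6 and 860.3 normalized counts in untreated control samples and 862.3 and 992.4 in untreated DENR KO samples. These ranges overlap. In IFNγ-treated cells the control samples reached 5533 and 5179, on average 5356 ± 250.4 (SD, n = 2), against 3714 and 3648 in the DENR KO samples, on average 3681 ± 46.7 (SD, n = 2). The gap between the genotypes was several times the spread within either group. DENR KO cells held 68.7% of the control level, a log2 difference of -0.54 (standard error 0.0575, 95% interval -0.66 to -0.42; limma, adjusted p = 8.4e-07).

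Thus 2 of the 5 members tested with IFNγ fell in DENR KO cells and none rose. Of all genes tested, 2.25% fell and 1.8% rose at the same threshold, an adjusted p-value under 0.05. Ordered by p-value, Stat3 was number 55 and Stat2 number 85 of the 13928 genes. Each stayed below the threshold in all 13 alternative fits, with adjusted p-values up to 0.00031 for Stat2 and up to 2.9e-05 for Stat3.

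Stat5a (ENSMUSG00000004043) had 369.9 and 400.7 normalized counts in IFNγ-treated control samples and 351.3 and 296.9 in DENR KO samples. The DENR KO samples were the lower pair without overlap, but the log2 difference of -0.25 (95% interval -0.49 to -0.02) had an adjusted p-value of 0.31 in limma. With single samples left out, this difference ranged from -0.37 to -0.13. The paralog Stat5b (ENSMUSG00000020919) had 1298 and 1202 in control against 1348 and 1414 in DENR KO samples, which puts the DENR KO pair above control. Its log2 difference was 0.14 (95% interval -0.0042 to 0.29, adjusted p = 0.39 in limma). Stat6 (ENSMUSG00000002147), on the plus strand of chromosome 10 from 127642986 to 127660957, had 3274 and 3170 in control and 3231 and 3205 in DENR KO samples. For Stat6 the DENR KO values lay inside the control range, with a log2 difference near 0 and a 95% interval from -0.12 to 0.12. In all, 3 members had DENR KO samples below control without overlap and 1 had them above, patterns seen in 20.8% and 21.1% of all genes tested.

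Stat4 (ENSMUSG00000062939), on chromosome 1 from 51987148 to 52107189, rested on 0 and 2 reads in IFNγ-treated control samples and 4 and 7 in DENR KO samples, or 0, 2.01, 3.94 and 6.84 normalized counts. This is below the minimum mean of 10 set for testing, so it was left out of the main test. Without that filter its unadjusted p was 0.029 and its adjusted p-value 0.38 in limma, so no difference was detectable at this depth. On the same strand, 1033 exon bases of Stat4, 26.7% of its exon length, are shared with the predicted gene Gm28177. How reads on shared bases were assigned is not given in the sources used here. Whether any of these few reads came from Gm28177 was not tested.

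Without IFNγ none of the 5 members listed passed the test, where 0.579% of the 13998 genes tested did. The limma adjusted p-values lay between 0.81 and 0.98, and no member had an unadjusted p under 0.05 in limma, edgeR or DESeq2. The 95% intervals of the log2 difference ran from -0.32 to 0.16 for Stat2 and from -0.11 to 0.23 for Stat3, so differences of the size seen for either gene with IFNγ lay outside them. Stat5a had 330.0 and 305.1 normalized counts in control and 305.1 and 336.1 in DENR KO samples, and its interval was -0.23 to 0.25. For Stat5b, with 1390 and 1306 against 1364 and 1472, the interval was -0.08 to 0.22. Stat6 had 3213 and 3145 against 3229 and 3369, with an interval of -0.07 to 0.18. The untreated DENR KO samples of Stat2 lay below and those of Stat6 above the control samples without overlap, as 19.6% and 20.4% of all genes did, and the other 3 members overlapped.

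The interaction term of a fit to the 8 samples asked whether treatment altered the DENR KO effect itself, and in it the scale of each table cancels. Stat3 passed this test, as did 0.45% of the 13998 genes. The DENR KO effect on Stat3 was lower with IFNγ by a log2 difference of -0.60 (standard error 0.0985, 95% interval -0.80 to -0.40, adjusted p = 0.0019 in limma), and Stat3 ranked number 26 by p-value. For Stat2 the corresponding value was -0.44 (standard error 0.116, 95% interval -0.68 to -0.20). Its unadjusted p was 0.000952 but its adjusted p-value was 0.14, and between 0.06 and 0.58 over 16 alternative fits, so a treatment-dependent effect on Stat2 was not shown across all genes. Stat5a, Stat5b and Stat6 had differences of -0.27, 0.07 and -0.06 with adjusted p-values of 0.97 or above.

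**Figure D2:**
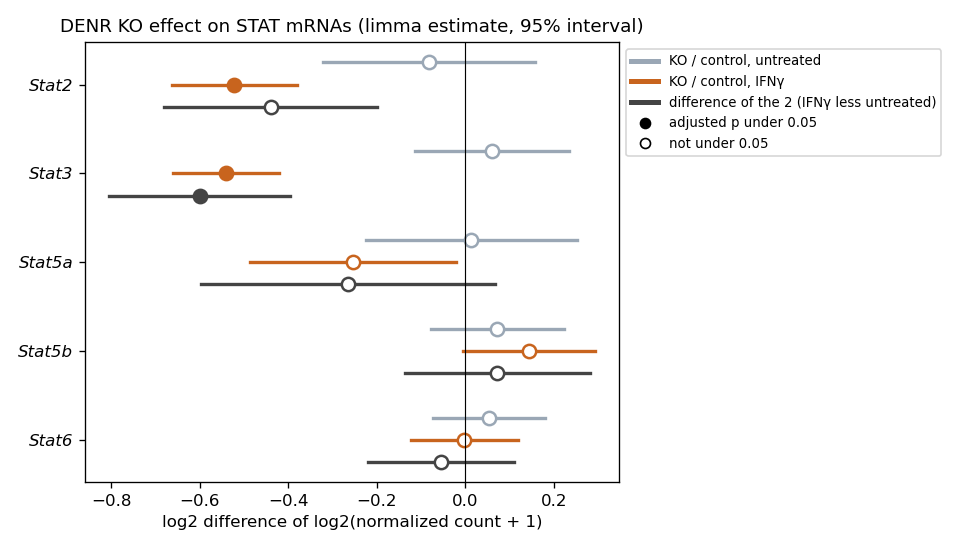
Log2 difference of DENR KO from control (x axis) for the 5 tested STAT mRNAs (y axis) in untreated and IFNγ-treated cells, with the difference between the 2 effects, as limma estimates with 95% intervals over 2 samples per group. Filled circles, adjusted p under 0.05, appear for Stat2 and Stat3 with IFNγ and for the interaction of Stat3.

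The tables of treated and untreated cells were normalized separately, so the ratio of treated to untreated means is given as a description. The mean of Stat2 with IFNγ was 6.095 times the untreated mean in control cells and 4.49 times in DENR KO cells. For Stat3 the ratios were 6.03 and 3.97. Ratios of at least 2 were found for 3.18% of all genes in control cells and 2.46% in DENR KO cells. In absolute terms control cells gained 1590 normalized counts of Stat2 and 4468 of Stat3, and DENR KO cells gained 1030 and 2754, so that the DENR KO rise amounted to 64.8% of the control rise for Stat2 and 61.6% for Stat3.

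The reads behind the values could be recovered, and edgeR was run on them with all 8 samples scaled together. The rises of Stat2 had log2 changes of 2.68 in control (adjusted p = 2.3e-19) and 2.24 in DENR KO cells (adjusted p = 2.3e-17), and those of Stat3 were 2.67 (adjusted p = 8.7e-21) and 2.07 (adjusted p = 2.9e-18) by edgeR. At this threshold 8.96% of genes rose in control and 7.19% in DENR KO cells. Stat5a rose slightly in control cells, by 0.35 (adjusted p = 0.034 in edgeR), and its value in DENR KO cells was 0.09 (adjusted p = 0.74), though the difference between the genotypes was not called, as given above. Stat5b and Stat6 did not pass in either genotype (adjusted p between 0.33 and 0.84 in edgeR). Their ratios on the deposited values ran from 0.927 to 1.01, and no direction is given for them, since it changed with the scaling in DENR KO cells.

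Stat3 and Stat5a lie tail to tail on opposite strands of chromosome 11 and share 72 exon bases, which is 0.756% of the exons of Stat3 and 1.01% of those of Stat5a. Stat5a runs from 100859351 to 100885169 on the plus strand, and Stat5b from 100780731 to 100850724 on the minus strand of the same chromosome. How strand was handled in counting is not given in the sources used here, and Stat5a gained 67.7 normalized counts with IFNγ in control cells while Stat3 gained 4468. The part of the shared bases in the Stat5a value was not tested. Stat5a and Stat5b were also the only pair of members with long identical stretches. Of all 100-base stretches in the annotated transcripts, 3.44% of those of Stat5a occur in Stat5b and 4.79% of those of Stat5b in Stat5a, and at 50 bases the shares are 8.21% and 11%. How reads from such stretches were divided between the 2 genes was not tested.

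Compared per kilobase of gene model, Stat6 had the highest level of the members in every group. The length used was that of all annotated exons of a gene, 9527 bases for Stat3 and 4402 for Stat6. It is not the length of the transcripts these cells express, so the order and the shares depend on it. In normalized counts Stat3 was above Stat6 with IFNγ, at 5356 against 3222 in control and 3681 against 3218 in DENR KO cells. Untreated control cells had a level of 722 ± 10.8 normalized counts per kb for Stat6 (SD, n = 2), followed by 243 ± 10.7 for Stat5b, 93.2 ± 4.10 for Stat3, 52.7 ± 0.53 for Stat2 and 44.5 ± 2.46 for Stat5a. The order was the same in untreated DENR KO cells, and in both groups the samples of neighbouring genes did not overlap. With IFNγ, Stat3 moved to second place at 562 ± 26.3 in control and 386 ± 4.90 in DENR KO cells, between Stat6 and the rest.

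Stat2 and Stat5b exchanged places between the genotypes. In IFNγ-treated control cells Stat2 was above Stat5b, at 321 ± 13.8 against 226 ± 12.3 per kb, and in DENR KO cells it was below, at 224 ± 7.11 against 249 ± 8.43. The samples of the 2 genes did not overlap in either group. Shares were taken of the summed level of the members, without Stat4 in untreated cells, where it is not listed. Stat6 held 62.1% and 62.9% in the untreated control samples. With IFNγ it held 38.7% and 38.55% in control samples and 44.9% and 44.4% in DENR KO samples. Stat3 held 8.18% and 7.95%, then 30.2% and 29.1%, then 23.8% and 23.4% in the same groups.

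**Figure D3:**
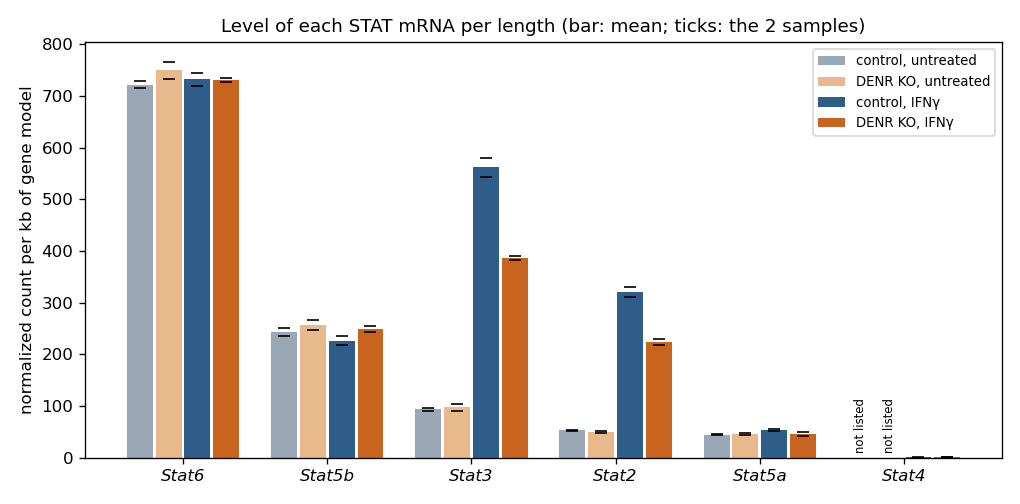
Level of each STAT mRNA in normalized counts per kb of gene model (y axis, linear from 0) for the 4 groups, with bars at the mean and ticks at the 2 samples. Stat6 leads in every group, at 722 to 749 per kb, and with IFNγ Stat2 stands above Stat5b in control cells and below it in DENR KO cells.

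The 5 members with enough signal fell into 2 kinds by their pattern over the 8 samples. Likeness was measured as the root mean square difference of log2 values after centring each gene on its own mean. It was taken against 10116 other genes with a mean of at least 100 both in treated and in untreated cells. Induced genes with low untreated values were thus left out of the neighbours and ranks below. Stat2 and Stat3 differed from each other by 0.115 and ranked number 7 in likeness to one another. The genes closest to Stat2 were Ccl2, a monocyte-attracting chemokine, at 0.0657, Tlr2, a receptor for bacterial lipoproteins, at 0.084, and Uba7, the activating enzyme for ISG15, at 0.0861. Closest to Stat3 were C1ra, a complement protease, at 0.0559, Oas3, an antiviral nucleotide polymerase, at 0.0666, and Rnf19b, a ubiquitin ligase, at 0.0757. Within a distance of 0.2 there were 23 genes for each of Stat2 and Stat3. By contrast the other members had many more such neighbours, 5619 for Stat5a, 8666 for Stat5b and 8756 for Stat6, so the names of their closest genes carry little. They were Map3k14, Ppp2r2d and Rad52 for Stat5a, Zswim8, Gatad2a and Lmbrd1 for Stat5b, and Kansl2, Snx27 and Gps1 for Stat6. These likenesses are descriptions over 8 samples that share their libraries and the treatment.

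Other genes of the pathway were taken from 9 lists written from general knowledge, which share some genes. Of the 125 genes on them, 96 could be tested with IFNγ, of which 17 fell and 3 rose in DENR KO cells, beside the 2.25% and 1.8% of all genes given above, with a median log2 difference of -0.07 beside a median of 0 over all genes tested. When single samples were left out, 11 of these 20 stayed below the threshold each time. Untreated, 1 of 91 fell and 2 rose, where 0.15% and 0.429% of all genes did. Those were Socs2, a STAT5-induced inhibitor, at -0.96 (adjusted p = 0.013 in limma), and Vegfa, an angiogenic growth factor, and Junb, an AP-1 subunit, both at 0.27. With any single untreated sample left out, at most 1 of the 3 still passed.

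Among the 4 Janus kinases, 1 fell with IFNγ. Jak2, which is bound to the IFNGR2 chain, had 2068 and 2163 normalized counts in control and 1706 and 1738 in DENR KO samples, a log2 difference of -0.30 (adjusted p = 0.0064 in limma), and this rose to an adjusted p of 0.063 without the second control sample. The other kinases had differences of 0.01 for Jak1, -0.15 for Jak3 and -0.03 for Tyk2, none of which passed. Untreated, the 4 differences lay between -0.10 and -0.07 without a call, and the interaction of Jak2 was -0.20 with an adjusted p-value of 0.92.

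Of 17 cytokine receptor chains tested with IFNγ, 3 fell, with a list median of -0.07. They were Il13ra1, which pairs with the IL-4 receptor that activates STAT6, at -0.65 (adjusted p = 0.00071), Osmr, the oncostatin M receptor that activates STAT3, at -0.61 (adjusted p = 4e-05), and Il15ra, the high-affinity chain for IL-15, at -0.41 (adjusted p = 0.0014 in limma). Osmr had 895 and 941 normalized counts in control and 578 and 626 in DENR KO samples. None of the 4 cytokines of the gp130 family that were tested passed, and Lif, the most abundant, had a difference of -0.14 (adjusted p = 0.42).

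The inhibitors moved both ways. Of 18 tested with IFNγ, 3 fell and 1 rose, around a list median of -0.04. Socs1, which blocks JAK1 and JAK2, had 3314 and 3616 normalized counts in control and 2087 and 2032 in DENR KO samples, a difference of -0.75 (adjusted p = 1.9e-08 in limma). Socs3, which blocks gp130 signaling to STAT3, had 2269 and 2012 against 1465 and 1325, a difference of -0.62 (adjusted p = 5.3e-06). The third, Cish, an inhibitor of STAT5 named after its value was seen, was at -0.73 (adjusted p = 0.042) and had an adjusted p of 0.5 without the first DENR KO sample, 0.12 without the first control sample and 0.32 in DESeq2. Socs5 was higher at 0.27 (adjusted p = 0.012), but not below the threshold without the second DENR KO sample (0.16) or the first control sample (0.14). Of 9 cofactors, Irf9, the DNA-binding partner of STAT2, was lower at -0.28 (adjusted p = 0.037), a call that was lost without the first DENR KO sample (0.32), without the first control sample (0.19), in DESeq2 (0.15) and in a fit over all 8 samples (0.23).

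Target genes were listed under each STAT they are commonly linked to, so that Cish counts for STAT5 and STAT6, and Pim1 and Bcl2l1 for STAT3 and STAT5. Of 23 targets of STAT2 with IRF9 tested with IFNγ, 6 fell and none rose, where 2.25% and 1.8% of all genes did. A negative difference was found for 18 of them, beside 6975 of the 13928 genes tested, and the list median was -0.37. Oasl2, an antiviral OAS-like protein, had 1528 and 1553 normalized counts in control and 968 and 973 in DENR KO samples, a difference of -0.67 (adjusted p = 7.6e-07 in limma). Rtp4, an interferon-induced chaperone, and Xaf1, which promotes apoptosis, were at -0.63 and -0.55, the first not called in a fit over all 8 samples (adjusted p = 0.23). Of the other calls, named after their values were seen, Oas3 was at -0.44, Isg15, a ubiquitin-like modifier, at -0.57, and Eif2ak2, the kinase PKR, at -0.30. Isg15 was not called without the second DENR KO sample (0.11), in DESeq2 (0.057) or in a fit over all 8 samples (0.12), and Eif2ak2 was not called without the first DENR KO sample (0.058). In untreated cells none of 20 of these targets passed and the median was 0.01. In the interaction none of 22 passed, with a median of -0.41, beside 0 over all genes.

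STAT3 targets were mixed. Of 21 tested with IFNγ, 5 fell and 2 rose around a median of -0.11. Cebpd, a transcription factor of the acute-phase response, fell from 2358 and 2188 to 1578 and 1518 normalized counts (log2 difference -0.55, adjusted p = 5.2e-06 in limma), as did Socs3 and Osmr. The remaining calls were chosen after their values were seen. Bcl3 was at -0.41 and Cebpb at -0.24 on the lower side, and on the higher side were Vegfa at 0.33 and Ccnd1, which encodes cyclin D1, at 0.18. Without the second DENR KO sample Bcl3 and Cebpb no longer passed (0.072 and 0.19), Cebpb also failed without the second control sample (0.48), and Ccnd1 failed without any 1 of the 4 samples (0.066 to 0.24). Of 7 STAT5 targets, Cish was the single call, with a median of -0.05. Of 4 STAT6 targets, Socs1 and Cish were lower and the median was -0.43, but both are on the list of inhibitors too, and Il4ra, the receptor chain most specific to STAT6, had a difference of -0.13 (adjusted p = 0.55).

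In the interaction, 4 of 95 pathway genes passed with a negative difference (DENR KO effect under IFNγ less that in untreated cells) and none with a positive one, where 0.429% and 0.0214% of all genes did. Socs1 had the smallest p-value, with a difference of -0.75 (adjusted p = 0.00044 in limma), and it passed with each of the 8 samples left out. Junb, at -0.46 (adjusted p = 0.0064), Osmr, at -0.81 (adjusted p = 0.022), and Cebpd, at -0.52 (adjusted p = 0.043), did so in 5, 3 and 1 of those 8 fits. Their highest adjusted p-values were 0.083, 0.23 and 0.36.

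**Figure D4:**
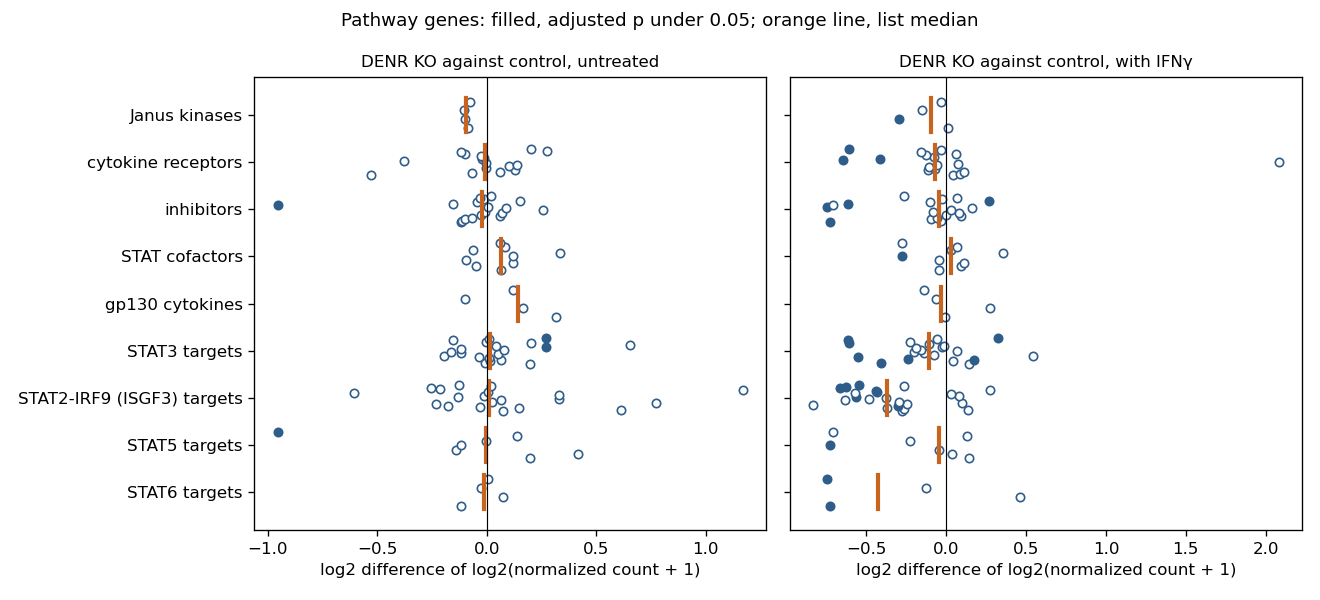
Log2 difference of DENR KO from control (x axis) for each tested gene of the 9 pathway lists (y axis) in untreated cells (left) and with IFNγ (right), 1 circle per gene, filled where the adjusted p was under 0.05, with an orange line at the list median. With IFNγ the targets of STAT2 with IRF9 lie mostly left of 0, at a median of -0.37, while the medians of the Janus kinases, receptors, inhibitors and cofactors lie between -0.09 and 0.03.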

How the data were processed

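The authors deposited 1 table per treatment with a normalized count (unit: signal) per gene and sample, and coordinates that are those of GRCm38. The deposited log2 fold changes and p-values of the authors' own comparison were not used. Libraries were made from poly-T selected mRNA and read as 150 bp paired ends. The submitters' processing notes name HISAT2 2.0.5, StringTie 1.3.3b, featureCounts 1.5.0-p3, DESeq2 1.20.0 and the build mm9, without roles.

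All deposited values were whole multiples of 1 read (tolerance 0.01), which gave back the reads. The main test was limma 3.58.1 (R 4.3.3), with trend and robust moderation, on log2(value + 1) for genes with a mean of at least 10, with Benjamini-Hochberg adjustment over all genes. Adding 1 understates changes of low genes. The plan named edgeR as the main test only if the deposited values were whole read counts, which they were not. On the recovered reads, edgeR 4.0.16 and DESeq2 1.42.0 were therefore run as alternatives. The others were different pseudocounts and filters, median centring, leaving out each sample, a replicate block and a fit over all 8 samples. Scripts were tested on simulated data. Replicates of a group differed by more than sampling noise. Treated and untreated levels were compared only descriptively, or by edgeR with all 8 samples scaled together.

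The members and lists were chosen with earlier results of these data known. Named genes are all members, all Janus kinases, up to 3 genes of each other list with the smallest adjusted p and a mean of at least 100, and the 3 genes most alike to each member. Further calls of the lists outside this rule are marked in the text as named or chosen after their values were seen. Depth limits genes with few reads, such as Stat4. Some genes are not reported here.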

Additional observations from a re-analysis of the deposited data

Results flagged for a closer look

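Stat3 stood out because the DENR KO effect differed between treatments by a test of the difference itself. The effect with IFNγ less the untreated effect was a log2 difference of -0.60 (adjusted p = 0.0019 in limma). With IFNγ both DENR KO samples were below both control samples, and in untreated cells the 2 groups overlapped. The adjusted p-value lay between 3e-05 and 0.04 over 16 alternative fits.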

How the results depend on the processing

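The numbers of members called, 2 with IFNγ, 0 untreated and 1 in the interaction, were the same under every alternative run. Leaving out single samples kept the log2 difference with IFNγ between -0.57 and -0.48 for Stat2 and between -0.59 and -0.49 for Stat3, and the interaction of Stat3 between -0.70 and -0.50. Values near 0 changed sign without a call. Stat6 with IFNγ became 0.0041 without the second DENR KO and 0.0213 without the first control sample (range -0.0249 to 0.0213). Untreated Stat5a became -0.0142 with median centring, -0.0565 without the second DENR KO and -0.0433 without the second control sample, and untreated Stat3 became -0.0415 without the second DENR KO sample, with ranges of -0.0565 to 0.0825 and -0.0415 to 0.1611. The cause was not tested. The other 204 values of single members in the DENR KO comparisons and the interaction kept their direction and call. Some log2 ratios of treated to untreated means also crossed 0 when single samples were left out. In DENR KO cells they ran from -0.1106 to 0.1321 for Stat5a and from -0.0918 to 0.0185 for Stat5b. For Stat6 in control cells they ran from -0.0039 to 0.0424.

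The count of pathway genes called with IFNγ was 32 in place of 20 with the replicate block, but 15 in a fit over all 8 samples, 16 with DESeq2 and 16 to 18 with single samples left out. Untreated it was 1 with median centring, 1 with DESeq2 and 0 to 1 with single samples left out, in place of 3. In the interaction it ranged from 1 to 4 with single samples left out, in place of 4. With all 8 samples scaled together, edgeR gave log2 changes with IFNγ of 2.68 for Stat2 and 0.0921 for Stat6 in control cells and 0.0408 for Stat6 in DENR KO cells, against 2.61, 0.02 and -0.04 on the deposited scale. This scaling moved the median log2 change of all genes from -0.08 to -0.01 in control cells and from -0.08 to -0.0028 in DENR KO cells. Over all genes, DESeq2 called 374 with IFNγ in place of 565 and 50 untreated in place of 81.

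The labels do not say that a replicate number marks a shared batch. Same-numbered samples of control and DENR KO cells had deviations correlated at 0.22 with IFNγ and at -0.0168 untreated. Those of treated and untreated cells were correlated at 0.228 in control and at 0.0238 in DENR KO cells. With the replicate block, 1455 genes were called with IFNγ, 257 untreated and 102 in the interaction (63 without it), and the calls of the STAT mRNAs stayed at 2, 0 and 1, with the adjusted p of the Stat2 interaction at 0.06.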
